A study of Mus musculus with 10 samples.

Results

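Wnt ligands, their Frizzled receptors and 2 groups of secreted inhibitors, the secreted Frizzled-related proteins (Sfrp) and the Dickkopf proteins (Dkk), were examined in aortic smooth muscle cells of mouse embryos with and without elastin. Members were taken by gene symbol, as Wnt or Fzd followed by a number, Sfrp1 to Sfrp5 and Dkk1 to Dkk4. The symbols matched 31 of the 28165 genes in the deposited table, namely 13 Wnt, 10 Frizzled, 4 Sfrp and 4 Dkk genes. The rule itself uses symbols and no measured value, but it was set with earlier results of these data known.

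Bulk RNA sequencing was done on 5 Eln-/- and 5 Eln+/+ libraries of untreated primary aortic cells from embryonic day 15.5. Both groups came from intercrosses of Eln+/- mice with an Acta2-GFP reporter, and aortas were taken from embryos that carried it. They were digested with collagenase, and cells that were GFP positive, CD31 negative and negative for the dead-cell dye DAPI were sorted. The gate therefore holds any aortic cell that uses the Acta2 promoter of the reporter and lacks the endothelial protein CD31. Neither the Eln allele nor the number of embryos behind a library is given in the labels, and replicates are not said to be separate embryos. The p-values thus measure the spread between libraries, which may be technical.

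Wnt proteins are lipid-modified secreted ligands that bind Frizzled receptors at the cell surface. With an LRP co-receptor they stabilize beta-catenin, which then acts with TCF and LEF factors on target genes, and with other co-receptors they control cell polarity and movement. Sfrp proteins carry a Frizzled-like domain and bind Wnt outside the cell, and Dkk proteins other than Dkk3 act on the LRP co-receptors. In the vessel wall, Wnt signalling is known for roles in the growth, migration and differentiation of smooth muscle.

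Total estimated counts per library ranged from 28367780 to 56371507 in Eln-/- and from 26951733 to 63866416 in Eln+/+. Genes with at least 1 count numbered 15595 to 22951 in Eln-/- libraries and 15089 to 21864 in Eln+/+ libraries. The 3 libraries with the fewest detected genes were Eln-/- libraries 4 and 5 and Eln+/+ library 1, and a fold change is also given without all 3 where that reversed it or moved it by over 1.5 times. Eln, the targeted gene, was at 0 to 0.493 CPM, counts scaled to library size, in Eln-/- and 159 to 1214 CPM in Eln+/+ libraries, so all 10 libraries fitted their labels. The log2 fold change of Eln was -12.19 (SE 1.64), with an adjusted p of 0.152 by edgeR and 1.26e-20 by DESeq2. All 10 smooth muscle markers on the list were expressed, and Acta2 ranged from 601 to 1742 CPM in Eln-/- and from 473 to 1195 CPM in Eln+/+. Myh11, a heavy chain of smooth muscle myosin, was far more uneven, at 0.0377 to 119 CPM in Eln-/-, against 1.47 to 34.5 CPM in Eln+/+. Pecam1, which encodes CD31, was at most 3.41 CPM in Eln-/-, against 7.70 CPM in Eln+/+.

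Promoter letters are shown for 3 genes on which the results turn, namely Sfrp2, the most abundant member, Fzd1, the Frizzled with the highest median level per length, and Wnt5b, the member with the most positive fold change. Each run is the 250 bases before a RefSeq transcription start, 5' to 3' on the sense strand, on GRCm38.p6. Capitals mark the motif found, if any. The Sfrp2 window is chr3:83766071-83766320 on the plus strand. The Fzd1 window is chr5:4758217-4758466 on the minus strand. RefSeq gives Wnt5b 3 starts with windows in the table, all on the minus strand, of which the one farthest upstream, chr6:119544348-119544597, and the one farthest downstream, chr6:119449387-119449636, are printed.
Sfrp2: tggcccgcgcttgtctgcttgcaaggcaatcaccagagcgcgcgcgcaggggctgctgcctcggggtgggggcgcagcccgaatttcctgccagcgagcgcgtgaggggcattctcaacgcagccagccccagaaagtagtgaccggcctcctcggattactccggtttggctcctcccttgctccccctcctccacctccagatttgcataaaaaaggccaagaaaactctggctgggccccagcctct
Fzd1: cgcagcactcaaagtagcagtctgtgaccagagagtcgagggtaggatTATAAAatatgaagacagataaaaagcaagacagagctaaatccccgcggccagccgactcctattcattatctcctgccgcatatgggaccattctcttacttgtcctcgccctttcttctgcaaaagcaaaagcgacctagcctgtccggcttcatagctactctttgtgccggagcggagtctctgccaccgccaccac
Wnt5b, upstream start: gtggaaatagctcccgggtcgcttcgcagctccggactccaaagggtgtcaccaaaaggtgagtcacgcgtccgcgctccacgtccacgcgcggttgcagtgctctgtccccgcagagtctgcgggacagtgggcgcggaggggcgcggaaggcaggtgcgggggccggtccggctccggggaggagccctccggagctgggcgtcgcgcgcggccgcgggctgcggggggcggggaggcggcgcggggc
Wnt5b, downstream start: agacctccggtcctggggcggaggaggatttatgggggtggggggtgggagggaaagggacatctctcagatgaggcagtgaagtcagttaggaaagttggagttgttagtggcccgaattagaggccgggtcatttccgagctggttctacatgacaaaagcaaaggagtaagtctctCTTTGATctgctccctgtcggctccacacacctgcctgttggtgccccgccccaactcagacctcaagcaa

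These 4 windows differed in base composition. The G and C content was 63.6% for Sfrp2, 51.2% for Fzd1, 75.2% for the upstream and 55.6% for the downstream Wnt5b start. RefSeq windows were found for 21 of the 31 members, 24 in all, and their median G and C content was 67.4%, against 52.4% over all 32851 windows. The letters CTTTGAT, a form of the TCF and LEF site were searched on both strands, as were the other motifs, and were in the downstream Wnt5b window and in the Wnt11 window, 2 of 24, and in 1053 of all windows (3.21%). The letters TATAAA, as found in a TATA box, were in the windows of Fzd1, Wnt11, Dkk1 and Dkk2, 4 of 24, and in 4063 of all windows (12.4%). They were counted at any position and on either strand, so a match need not be a TATA box. The CArG box, the site of serum response factor, was in no member window and in 482 of all windows (1.47%). A match describes letters in a window and is not evidence of a bound site.

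Of the members in the deposited table, most receptors and inhibitors and about as many ligands as not were expressed. Wnt genes with no row in that table, such as Wnt1 and Wnt3a, are not counted. Expression is taken as at least 1 CPM in at least 5 of the 10 libraries. By that measure 19 of 31 members were expressed, namely 7 Wnt, 7 Frizzled, 3 Sfrp and 2 Dkk genes, as were 13337 of all 28165 genes. Sfrp1, Sfrp2, Fzd1, Fzd2, Fzd3, Fzd4 and Wnt5a reached 1 CPM in all 10 libraries. Fzd5, Fzd9 and Wnt6 were below the limit for expression but were kept by the filter on low counts, so 22 members were tested for genotype among 15718 genes.

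The other 9 members were not kept by that filter. Wnt3, a ligand of the beta-catenin branch, had no count in any library, which allows a level of up to 0.0344 to 0.218 CPM depending on the library, taking 3 counts as the limit. Counts in 1 library only were found for 4 members, with Dkk1 at 69 and Wnt7a at 14 counts in Eln-/- library 1, Dkk4 at 22 counts in Eln-/- library 5 and Wnt10a at 64 counts in Eln+/+ library 3. Dkk1 is the best known LRP-blocking Dickkopf. Fzd10, Sfrp5, Wnt16 and Wnt4 had counts in 2 or 3 libraries, and the highest of these was Wnt16 at 289 counts in Eln-/- library 1. Such limits cover counting error only.

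Levels per kilobase of exon, CPM divided by the length of all annotated exons, were led by genes of the Sfrp and Dkk families. Sfrp2 had a median over the 10 libraries of 433 CPM per kb, and Dkk3 followed at 59.1 and Sfrp1 at 43.9 CPM per kb. The leading receptors were Fzd1 at 20.3, Fzd4 at 15.5 and Fzd2 at 11.0 CPM per kb, and Wnt2 led the ligands at 9.46 CPM per kb. Sfrp2 exceeded Dkk3 in 10 of 10 libraries, Sfrp1 exceeded Fzd1 in 9 and Wnt2 exceeded Sfrp4, the next in order, in 9. The neighbours Dkk3 and Sfrp1, Fzd1 and Fzd4, and Fzd2 and Wnt2 kept their order in 6 libraries each. Their order thus varied between libraries, and their differences were not tested. Below Wnt2 came Sfrp4 at 4.44, Wnt9a at 3.27, Fzd7 at 3.03, Dkk2 at 3.02, Wnt5b at 2.76, Wnt5a at 2.74 and Fzd3 at 1.53 CPM per kb. The remaining expressed members, Wnt2b, Wnt11, Fzd6, Fzd8 and Wnt10b, had medians from 0.155 to 0.850 CPM per kb.

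**Figure D1:**
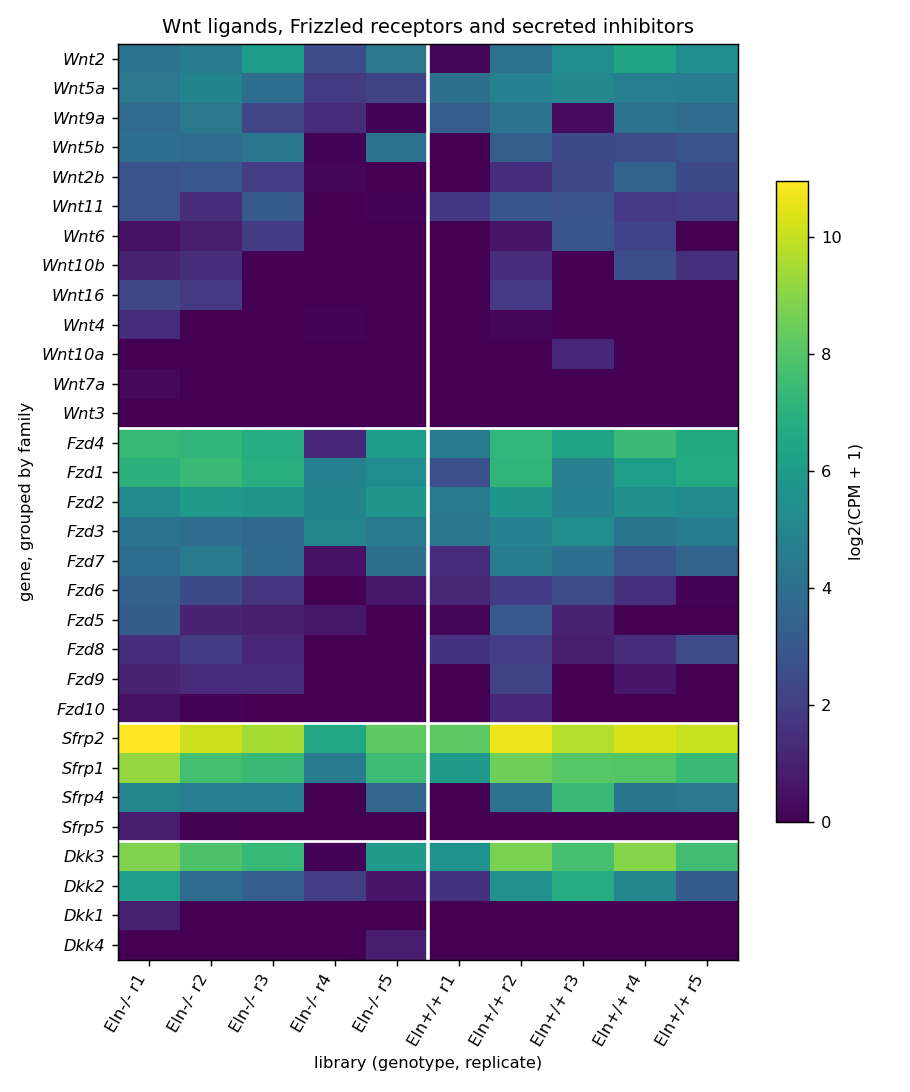
Colour shows log2(CPM + 1) of the 31 members (rows, by family) in the 5 Eln-/- libraries on the left and the 5 Eln+/+ libraries on the right. The scale runs from dark at 0 to yellow at the top, and Sfrp2 is the brightest row in every library. The 9 members not kept by the filter are dark nearly throughout. In Eln-/- libraries 4 and 5 and Eln+/+ library 1, 6 of the 19 expressed members are darker than in any other library.

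Of the ligands, Wnt2 was the highest per kilobase in 9 libraries and Wnt9a in 1, Eln+/+ library 1. Wnt2, which signals mainly through beta-catenin (chr6:17988940-18030585, minus strand), was at 16.9, 22.5, 65.5, 4.72 and 20.1 CPM in Eln-/- libraries 1 to 5, against 0.132, 16.3, 40.04, 85.1 and 38.9 CPM in Eln+/+ libraries 1 to 5. Both groups spanned low and high values and overlapped. Means were 25.9 ± 23.1 CPM in Eln-/-, against 36.1 ± 32.1 CPM in Eln+/+ (SD, n = 5 each, as for all means below unless stated), with a log2 fold change of -0.48 (SE 1.05, 95% interval -2.78 to 1.82).

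Wnt5a, which acts largely outside the beta-catenin branch through Ror receptors (chr14:28504750-28527448, plus strand), was at 19.1, 29.8, 14.7, 2.61 and 3.69 CPM in Eln-/-, against 15.3, 26.8, 32.1, 24.7 and 23.8 CPM in Eln+/+. It was low in Eln-/- libraries 4 and 5 and even among the Eln+/+ libraries, and the groups overlapped. Its means were 13.98 ± 11.3 CPM in Eln-/-, against 24.5 ± 6.09 CPM in Eln+/+. On the log2 scale the fold change was -0.81 (SE 0.69, 95% interval -2.32 to 0.70), with an unadjusted p of 0.263, the smallest of the 22 members. Without the 3 libraries of fewest genes the mean was 21.2 ± 7.80 CPM in Eln-/- (n = 3), against 26.8 ± 3.75 CPM in Eln+/+ (n = 4), and the log2 fold change was -0.31.

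Wnt5b, a close relative of Wnt5a (chr6:119432531-119544347, minus strand), had the most positive fold change of the members. It was at 15.1, 13.5, 18.6, 0.0726 and 16.4 CPM in Eln-/-, against 0, 8.98, 4.38, 4.61 and 5.68 CPM in Eln+/+. Eln-/- libraries 1, 2, 3 and 5 lay above every Eln+/+ library, whereas Eln-/- library 4 lay below 4 of them and held 1 count. The zero in Eln+/+ library 1 allows up to 0.198 CPM. Means were 12.7 ± 7.33 CPM in Eln-/-, against 4.73 ± 3.22 CPM in Eln+/+, and the log2 fold change was 1.43 (SE 1.29, 95% interval -1.39 to 4.25), with an unadjusted p of 0.291. Per kilobase, Wnt5b made up 23.4%, 18.04%, 16.4%, 0.916% and 39.6% of all Wnt in Eln-/- and 0%, 15.1%, 5.60%, 3.24% and 7.40% in Eln+/+. The exons of Wnt5b overlap those of no other annotated gene, but its counts were not whole in 3 libraries. Some of its reads may thus be shared with other genes, which was not tested.

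Wnt9a (chr11:59306928-59333552, plus strand), another secreted ligand, was at 13.2, 19.3, 3.86, 1.60 and 0.0754 CPM in Eln-/-, against 8.53, 16.8, 0.244, 16.3 and 13.9 CPM in Eln+/+. Each group held libraries near 0 and libraries above 10 CPM. The log2 fold change was -0.55 (SE 1.22, 95% interval -3.21 to 2.12), and it was 0.0613 without the 3 libraries of fewest genes. Among the weaker ligands, Wnt2b, Wnt11 and Wnt10b averaged 3.19 ± 3.19, 2.99 ± 3.44 and 0.543 ± 0.774 CPM in Eln-/-, against 4.00 ± 3.72, 4.11 ± 1.98 and 1.72 ± 2.13 CPM in Eln+/+. Wnt6, below the limit for expression, averaged 0.814 ± 1.18 CPM in Eln-/-, against 2.13 ± 2.85 CPM in Eln+/+.

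Of the receptors, Fzd1, Fzd2 and Fzd4 together made up 84.9% to 91.7% of all Frizzled per kilobase in Eln-/- and 76.5% to 93.7% in Eln+/+. Which of them led was not fixed, with Fzd1 highest per kilobase in 5 libraries, Fzd2 in 3 and Fzd4 in 2. Fzd1 (chr5:4753839-4758035, minus strand) was at 130.1, 166, 117, 26.7 and 38.3 CPM in Eln-/-, against 5.42, 144, 26.6, 69.3 and 101 CPM in Eln+/+. Low values stood in Eln-/- libraries 4 and 5 and in Eln+/+ libraries 1 and 3, and the groups overlapped. The means were 95.7 ± 60.6 CPM in Eln-/-, against 69.3 ± 55.9 CPM in Eln+/+, with a log2 fold change of 0.47 (SE 0.78, 95% interval -1.23 to 2.16), or 0.71 without the 3 libraries of fewest genes.

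Fzd2, from the same receptor subgroup as Fzd1 and Fzd7 (chr11:102604396-102608058, plus strand), was the most even receptor. It was at 36.8, 57.5, 51.6, 28.5 and 52.0 CPM in Eln-/-, against 20.2, 50.6, 27.2, 43.9 and 36.2 CPM in Eln+/+. The highest library was 2.85 times the lowest, compared with 30.7 times for Fzd1 and 134 times for Fzd4. Its log2 fold change was 0.35 (SE 0.42, 95% interval -0.57 to 1.27), the narrowest interval of the members given in full. Counts of Fzd1 or Fzd2 were not whole in 7 libraries, and the sum of Fzd1, Fzd2 and Fzd7 was whole in 7 of these 7 (tolerance 0.06), so reads were shared among these genes and their separate levels are uncertain.

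Fzd4, a receptor of Wnt and of the ligand Norrin (chr7:89404355-89413134, plus strand), was at 159, 141, 109, 1.31 and 63.7 CPM in Eln-/-, against 20.9, 152, 77.0, 176 and 99.0 CPM in Eln+/+. Eln-/- library 4 stood lowest by far, and there Fzd4 held 1.15% of all Frizzled per kilobase, against 24.9% to 44.9% in the other 9 libraries. Its log2 fold change was -0.15 (SE 0.87, 95% interval -2.06 to 1.77), and without the 3 libraries of fewest genes it was 0.13. Fzd7 (chr1:59482424-59486955, plus strand) was at 14.7, 20.96, 12.7, 0.436 and 15.2 CPM in Eln-/-, against 1.45, 22.9, 15.0, 5.97 and 10.3 CPM in Eln+/+. Its lowest values were again in Eln-/- library 4 and Eln+/+ library 1. The log2 fold change was 0.20 (SE 0.92, 95% interval -1.82 to 2.22).

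Fzd3, a receptor best known from axon guidance and planar polarity (chr14:65192449-65262463, minus strand), did not follow that order. It was at 17.2, 14.3, 11.8, 30.1 and 20.4 CPM in Eln-/-, against 18.8, 28.2, 40.2, 18.2 and 22.9 CPM in Eln+/+. Eln-/- library 4, the lowest of all for Fzd4 and Fzd7, was the highest Eln-/- library for Fzd3 in CPM. That place depended on its TMM factor of 0.486, against 0.847 to 1.32 in the other Eln-/- libraries. Fzd3 counts before scaling were 1255, 935, 555, 415 and 542 in Eln-/- libraries 1 to 5. Means were 18.8 ± 7.12 CPM in Eln-/-, against 25.7 ± 9.03 CPM in Eln+/+, with a log2 fold change of -0.45 (SE 0.48, 95% interval -1.51 to 0.61) and an unadjusted p of 0.369. The weaker receptors Fzd6, Fzd8, Fzd5 and Fzd9 averaged 3.30 ± 3.69, 1.18 ± 1.18, 2.19 ± 3.44 and 0.871 ± 0.823 CPM in Eln-/-, against 2.18 ± 1.81, 2.41 ± 1.46, 1.65 ± 3.07 and 0.790 ± 1.45 CPM in Eln+/+.

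**Figure D2:**
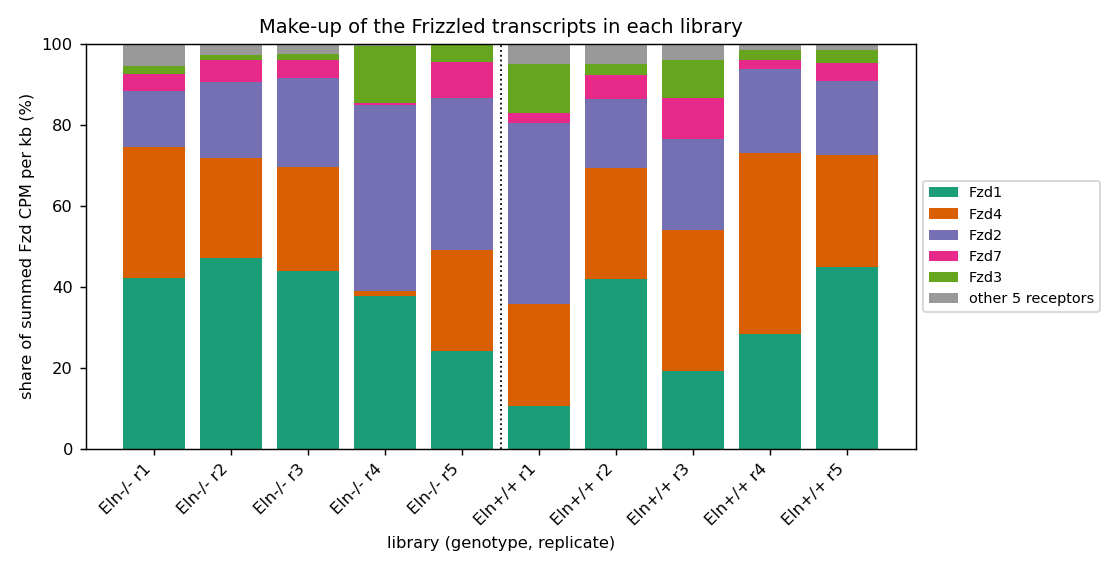
Stacked bars, starting at 0, give each Frizzled gene's percent of all Frizzled CPM per kilobase in each library, with Eln-/- on the left and Eln+/+ on the right. Fzd1, Fzd2 and Fzd4 fill most of every bar, Fzd4 shrinks to 1.15% in Eln-/- library 4, and Fzd2 is the widest segment there and in Eln-/- library 5 and Eln+/+ library 1.

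Of the Sfrp inhibitors, Sfrp2 (chr3:83766321-83774316, plus strand) was the member with the most counts in every library, and made up 38.0% to 55.0% of member counts in Eln-/- and 44.6% to 58.3% in Eln+/+. It was at 1969, 1092, 707, 93.7 and 297 CPM in Eln-/-, against 286, 1607, 835, 1247 and 1028 CPM in Eln+/+. The highest and the lowest library were both Eln-/-, so that group enclosed the other. Means were 832 ± 743 CPM in Eln-/-, against 1001 ± 492 CPM in Eln+/+, with a log2 fold change of -0.27 (SE 0.75, 95% interval -1.91 to 1.38), and it was 0.11 without the 3 libraries of fewest genes. Exons of Sfrp2 overlap those of Gm26771 on the other strand, as those of Wnt5a, Wnt11, Fzd5 and Fzd6 overlap another gene, and since no source used here gives the strand setting of the counting, reads of such pairs cannot be told apart.

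Sfrp1 (chr8:23411502-23449632, plus strand) was at 597, 202, 171, 21.4 and 182 CPM in Eln-/-, against 57.9, 373, 271, 256 and 172 CPM in Eln+/+. Eln-/- library 1 was the highest and Eln-/- library 4 the lowest of all 10. Genotypes gave a log2 fold change of 0.06 (SE 0.73, 95% interval -1.54 to 1.65), and it was -0.65 without Eln-/- library 1 and 0.30 without the 3 libraries of fewest genes. Sfrp4 (chr13:19623104-19632994, plus strand) was at 30.8, 24.7, 25.5, 0 and 11.4 CPM in Eln-/-, against 0, 15.8, 166, 17.9 and 19.2 CPM in Eln+/+. Eln+/+ library 3 stood above all other libraries. The fitted log2 fold change of Sfrp4 was -1.24 (SE 1.51, 95% interval -4.55 to 2.07), and it was 0.48 without Eln+/+ library 3.

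Of the Dickkopf genes, Dkk3, a divergent member of the family (chr7:112116017-112159057, minus strand), was at 455, 237, 162, 0.0726 and 59.9 CPM in Eln-/-, against 48.5, 422, 208, 490.2 and 189.6 CPM in Eln+/+. Its lowest value, in Eln-/- library 4, rested on 1 count, and the groups overlapped. The log2 fold change was -0.57 (SE 1.16, 95% interval -3.12 to 1.98). It was -1.25 without Eln-/- library 1, -0.25 without Eln-/- library 4, -0.24 without Eln+/+ library 4 and -0.18 without the 3 libraries of fewest genes. Dkk2, which can inhibit or activate LRP signalling (chr3:132085292-132180304, plus strand), was at 67.9, 13.6, 8.78, 2.98 and 0.603 CPM in Eln-/-, against 1.98, 45.4, 107, 33.6 and 7.98 CPM in Eln+/+. In Eln-/- it was high in library 1 and under 14 CPM in the others, and the groups overlapped. Its log2 fold change was -1.06 (SE 1.19, 95% interval -3.65 to 1.53), and it was -2.59 without Eln-/- library 1, -0.24 without Eln+/+ library 3 and -0.65 without the 3 libraries of fewest genes, in each case without a call.

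**Figure D3:**
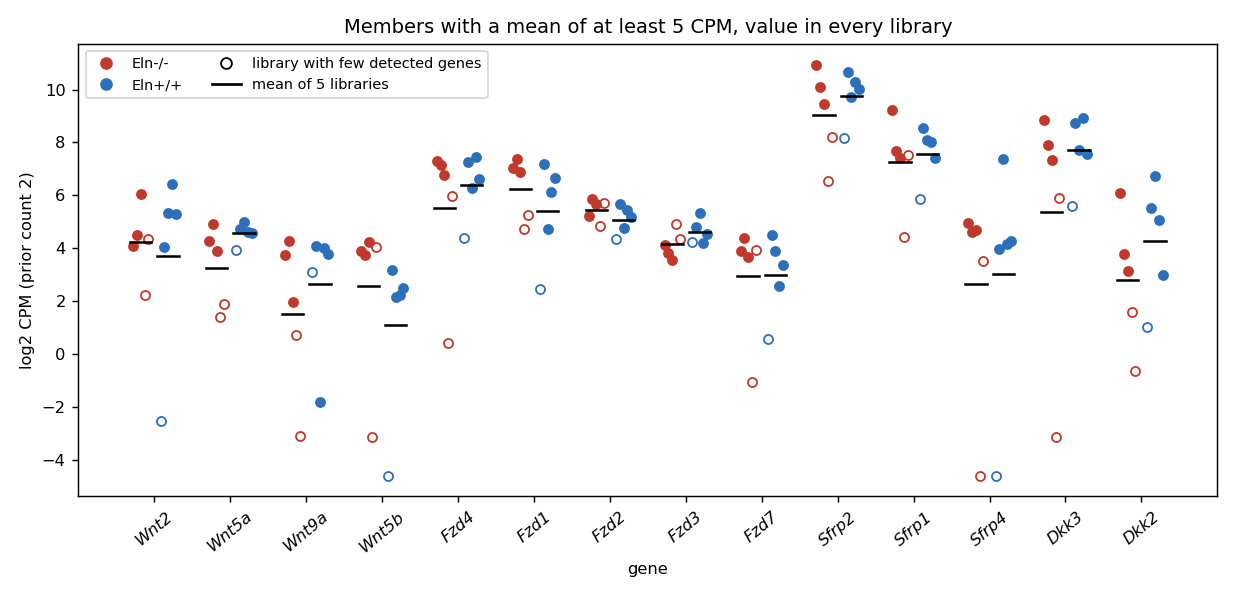
Points give log2 CPM (prior count of 2) of the 14 members with a mean of at least 5 CPM in each library, Eln-/- in red to the left of Eln+/+ in blue for each gene, with a bar at the mean of 5 libraries. Open points are the 3 libraries with the fewest detected genes, which lie at or near the bottom of most columns. Exceptions include Fzd3, and Eln-/- library 5 for Fzd2, Fzd7 and Wnt5b. The genotypes overlap for every gene shown.

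No Wnt, Frizzled, Sfrp or Dkk gene passed the test between Eln-/- and Eln+/+. With edgeR's quasi-likelihood test at an adjusted p of 0.05, the count was 0 of 22 members against 0 of 15718 genes (0.0%), and each member had an adjusted p of 1.00. At an unadjusted p under 0.05 the counts were 0 of 22 members and 81 of all genes (0.515%), and DESeq2, limma-voom and limma-voom with sample weights also called 0 of the 22, against 6 (0.0382%), 2 (0.0127%) and 7 (0.0445%) of all genes. No member had all Eln-/- libraries above or below all Eln+/+ libraries, against 48 of all genes (0.305%), 22 above (0.14%) and 26 below (0.165%). The intervals given with each gene were wide, and a missed threshold does not show equal levels. Fewer cells of a type and less RNA per cell cannot be told apart in these bulk libraries.

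Fitted log2 fold changes of the 22 members ranged from -1.64 for Wnt10b to 1.43 for Wnt5b. Values were below 0 for 14 members, 63.6%, with a median of -0.39, against 48.5% and a median of 0.02 over all genes tested. By role, 7 of 8 Wnt, 3 of 9 Frizzled, 2 of 3 Sfrp and 2 of 2 Dkk genes were below 0, with medians of -0.51, 0.20, -0.27 and -0.82. The counts differed without the 3 libraries of fewest genes, where 9 of 23 members were below 0 and the median was 0.11, against 0.04 over all 17509 genes tested then, and the counts by role were 4 of 9 Wnt, 2 of 9 Frizzled, 1 of 3 Sfrp and 2 of 2 Dkk genes. Without Eln-/- library 1 alone, 17 of 22 members were below 0 and the median was -0.76, against -0.13 over all genes.

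**Figure D4:**
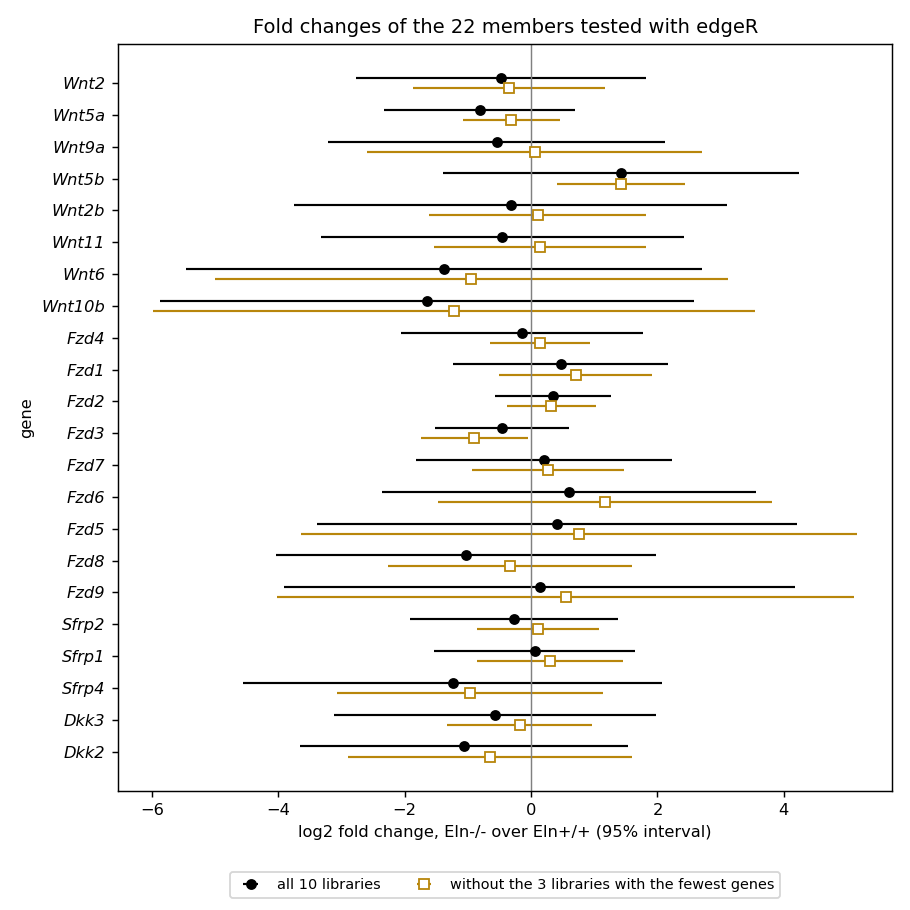
Points give the log2 fold change of Eln-/- over Eln+/+ for the 22 tested members, with 95% intervals, from all 10 libraries (filled circles) and without the 3 libraries of fewest detected genes (open squares). All intervals from the 10 libraries include 0, and without the 3 libraries those of Wnt5b, 0.40 to 2.44, and Fzd3, -1.74 to -0.05, do not.

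Detection of the members also differed between libraries. Eln-/- libraries had 28, 25, 21, 16 and 17 members with at least 1 count, against 16, 25, 21, 22 and 20 in Eln+/+. The lowest value, ties included, stood in 1 of the 3 libraries with the fewest genes for 21 of the 22 tested members (95.5%), against 10372 of all 15718 genes (65.99%). Dkk2, Dkk3, Fzd4, Sfrp2, Sfrp4 and Wnt2b were lower in all 3 of these libraries than in any of the other 7, 6 of 22 (27.3%), against 3379 of all 15718 genes (21.5%). Summed Frizzled levels were 378, 410.0, 309, 87.7 and 190.3 CPM in Eln-/- and 70.2, 415, 193, 317 and 274 CPM in Eln+/+. Summed ligand levels were 83.3, 98.6, 116, 9.22 and 40.4 CPM in Eln-/- and 26.4, 81.8, 94.7, 152 and 91.6 CPM in Eln+/+. The part of gene detection in these levels was not tested.

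In the other 7 libraries, Wnt5b and Fzd3 were the members whose genotypes did not overlap. Wnt5b was higher in Eln-/- at 15.7 ± 2.64 CPM (n = 3) than in Eln+/+ at 5.91 ± 2.12 CPM (n = 4), as were 348 of 15718 genes (2.21%). Its log2 fold change there was 1.42 (SE 0.44, 95% interval 0.40 to 2.44), with an unadjusted p of 0.0128 and an edgeR adjusted p of 1.00. Fzd3 was lower in Eln-/- at 14.4 ± 2.68 CPM (n = 3) than in Eln+/+ at 27.4 ± 9.45 CPM (n = 4), as were 260 genes (1.65%). Its log2 fold change there was -0.90 (SE 0.36, 95% interval -1.74 to -0.05), with an unadjusted p of 0.0404 and an edgeR adjusted p of 1.00. Neither Wnt5b nor Fzd3 passed the test over all genes. In that fit, 2 of 23 members had an edgeR unadjusted p under 0.05, against 271 of the 17509 genes tested then.

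Markers of other cell types were summed beside these values, since fibroblasts also express several of the inhibitors. All 8 fibroblast and adventitia markers were expressed, with sums of 2680.0, 1615, 1501, 505 and 732 CPM in Eln-/- and 1254, 3208, 4037, 3701 and 2064 CPM in Eln+/+. These sums were lowest in the same 3 libraries that were lowest for Sfrp2, and their part in the Sfrp2, Sfrp1 and Dkk3 levels was not tested. Smooth muscle markers summed to 1233 to 4514 CPM in Eln-/-, against 1149 to 2733 CPM in Eln+/+. Endothelial markers, 2 of 8 expressed, summed to 23.8 to 53.0 CPM in Eln-/-, against 14.7 to 79.8 CPM in Eln+/+. Mesothelial markers, 4 of 6 expressed, summed to 13.8 to 126 CPM in Eln-/-, against 20.96 to 198 CPM in Eln+/+. Erythroid genes, 5 of 7 expressed, summed to 22.3 to 5157 CPM in Eln-/-, against 331 to 18883 CPM in Eln+/+. The 2 highest erythroid sums were 5157 CPM in Eln-/- library 4 and 18883 CPM in Eln+/+ library 1, both among the 3 libraries with the fewest genes, while the third of these, Eln-/- library 5, was at 619 CPM and no other library exceeded 1356 CPM. The part of erythroid RNA in the member levels was not tested. Cardiomyocyte genes, 3 of 7 expressed, summed to 12.4 to 423 CPM in Eln-/-, against 3.15 to 599 CPM in Eln+/+. Glial markers, 2 of 5 expressed, summed to 3.24 to 45.9 CPM in Eln-/-, against 2.87 to 58.3 CPM in Eln+/+, and neuronal markers, 3 of 6 expressed, to 3.09 to 13.2 CPM in Eln-/-, against 2.51 to 42.3 CPM in Eln+/+. Macrophage markers, 0 of 7 expressed, summed to at most 7.92 CPM in Eln-/-, against 14.4 CPM in Eln+/+, and epithelial markers, 2 of 5 expressed, to at most 18.5 CPM in Eln-/-, against 9.14 CPM in Eln+/+. The glial marker Foxd3 and the epithelial marker Cdh1 had no row in the deposited table and are not counted. No marker with a row was at 0 in all 10 libraries.

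The rest of the pathway was read from 7 lists, and none of their genes passed edgeR's test. Medians of their log2 fold changes are given beside the 0.02 over all genes tested. Of the genes for Wnt secretion, 4 of 5 were tested and expressed, 2 with fold changes above and 2 below 0, with a median of -0.01. Wls, which carries Wnt to the cell surface, averaged 182 ± 98.0 CPM in Eln-/-, against 196 ± 83.8 CPM in Eln+/+. Tmed2, of early secretory transport, averaged 3143 ± 2235 CPM in Eln-/-, against 2123 ± 1582 CPM in Eln+/+, with a log2 fold change of 0.57 (SE 0.72). It was at 5576, 5457 and 4850 CPM in Eln-/- libraries 4 and 5 and Eln+/+ library 1, the 3 with the fewest genes, and at 790.5 to 2367 CPM in the other 7 libraries. The TMM factors of those 3 libraries were 0.486, 0.847 and 0.562, against 1.13 to 1.37 in the other 7, which widened that contrast in CPM. With library size only, the log2 fold change of Tmed2 was 0.45 (SE 0.44). Without those 3 libraries the log2 fold change of Tmed2 was 0.13. All 8 co-receptor and related genes were tested and expressed, 4 above and 4 below 0, with a median of -0.10. Gpc3, a cell-surface glypican, averaged 486 ± 499.7 CPM in Eln-/-, against 718 ± 429 CPM in Eln+/+, and Gpc4 averaged 103 ± 107 CPM in Eln-/-, against 79.9 ± 50.9 CPM in Eln+/+. Lrp5, the LRP co-receptor with the smallest p of the list, averaged 4.34 ± 6.16 CPM in Eln-/-, against 0.921 ± 1.31 CPM in Eln+/+, with a log2 fold change of 2.23 (SE 2.07) that was 0.97 without Eln-/- library 1.

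Of the R-spondins, their Lgr receptors and the ligases that remove Frizzled, 6 of 9 were tested, 1 above and 5 below 0, with a median of -0.45. Rspo3, an amplifier of Wnt signals, averaged 16.3 ± 5.66 CPM in Eln-/-, against 17.1 ± 5.77 CPM in Eln+/+. Znrf3, 1 of the ligases, averaged 9.65 ± 8.597 CPM in Eln-/-, against 14.6 ± 11.2 CPM in Eln+/+, and Lgr5 averaged 1.98 ± 2.15 CPM in Eln-/-, against 4.86 ± 6.99 CPM in Eln+/+. Of other extracellular inhibitors and Dkk co-receptors, 6 of 9 were tested, 3 above and 3 below 0, with a median of -0.0046. Frzb, a further secreted Frizzled-related protein, averaged 46.3 ± 44.6 CPM in Eln-/-, against 42.8 ± 22.3 CPM in Eln+/+. Sost, which encodes the LRP inhibitor sclerostin, averaged 43.0 ± 30.7 CPM in Eln-/-, against 24.2 ± 21.2 CPM in Eln+/+, with a log2 fold change of 0.83 (SE 1.15).

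Inside the cell, 15 of 17 mediators were tested and expressed, 6 above and 9 below 0, with a median of -0.24. Ctnnb1, which encodes beta-catenin, averaged 108 ± 57.9 CPM in Eln-/-, against 126 ± 43.5 CPM in Eln+/+, and the kinase gene Csnk1a1 averaged 244 ± 129.99 CPM in Eln-/-, against 289 ± 143 CPM in Eln+/+. Apc, part of the complex that degrades beta-catenin, averaged 6.53 ± 8.64 CPM in Eln-/-, against 1.49 ± 1.48 CPM in Eln+/+, with a log2 fold change of 2.13 (SE 1.62). It was at 21.1 CPM in Eln-/- library 1, without which the log2 fold change was 0.95, and it was 3.24 without the 3 libraries of fewest genes. Of 13 known targets of beta-catenin, 7 were tested and 6 expressed, 3 above and 4 below 0, with a median of -0.12. Axin2, the target most often read as a sign of beta-catenin activity, was not kept by the filter and was at 0 to 1.86 CPM in Eln-/-, against 0 to 1.35 CPM in Eln+/+. Lef1 was likewise at 0 to 1.92 CPM in Eln-/-, against 0 to 7.17 CPM in Eln+/+. Ccnd1, a cyclin of the cell cycle, averaged 95.2 ± 54.1 CPM in Eln-/-, against 120.3 ± 74.5 CPM in Eln+/+. Myc, a growth regulator, averaged 103 ± 186 CPM in Eln-/-, against 35.6 ± 45.3 CPM in Eln+/+, and its log2 fold change of 1.54 (SE 1.34) was -0.78 without Eln-/- library 1, where it was at 434 CPM. Of the planar cell polarity genes, 10 of 12 were tested, 5 above and 5 below 0, with a median of 0.04. Daam1 and Prickle1 averaged 50.4 ± 48.9 and 31.6 ± 26.4 CPM in Eln-/-, against 52.9 ± 18.7 and 28.6 ± 16.9 CPM in Eln+/+, and Celsr2, with the smallest p of that list, had a log2 fold change of 1.30 (SE 1.69). Without the 3 libraries of fewest genes the medians of the 7 lists ran from 0.06 to 0.51, and without Eln-/- library 1 from -0.77 to -0.28.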

How the data were processed

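Bulk RNA was sequenced from 5 Eln-/- and 5 Eln+/+ libraries. The authors deposited 1 table of estimated counts per gene and library, not scaled for depth. Per the submitters' processing notes, STAR, DESeq2 and the build mm10 were used, with no versions, and no source used here gives the counting program, its annotation or its strand setting. From 23.5% to 48.8% of values per library were not whole (tolerance 1e-06), so the deposited estimated counts were rounded before testing. Gene spans were the same as in GENCODE M21 for 27046 of 28165 genes (96.0%) once the listed ends were moved back by 1 base, and for 31 of 31 members. Coordinates are given on that build.

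Genes were kept by filterByExpr, scaled by TMM and tested with edgeR 4.0.16 (quasi-likelihood, two-sided, Benjamini-Hochberg over all genes tested, threshold 0.05, genotype as the only term) in R 4.3.3. CPM used TMM-scaled library sizes. SE was the log2 fold change divided by the square root of F, and intervals used the model's degrees of freedom. Total estimated counts of 26951733 to 63866416 per library set the counting precision.

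Members with a mean of at least 5 CPM, the 3 members with the smallest p and members without overlap were given in every library; for each of 7 pathway lists, the 2 most abundant genes and that with the smallest p were named. Further genes named from those lists (Axin2, Lef1) and from the marker lists were chosen after their values were seen. Members and lists were chosen with earlier results of these data known. The 10 marker lists were summed only. The labels do not say whether replicate numbers pair the samples, and the main fit did not pair them. Same-numbered libraries' deviations correlated from -0.556 to 0.510, highest for replicate 2, which cannot exclude a shared litter or preparation. Alternatives were DESeq2 1.42.0, limma 3.58.1 (voom), other scalings and filters, a replicate block and left-out libraries.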

Additional observations from a re-analysis of the deposited data

Results flagged for a closer look

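Each group of 5 libraries was checked for a highest or lowest value far from the others, by Dixon's ratio against a limit of 0.71, in 40 groups. That limit flags about 1 in 20 groups of normally distributed values, a shape that was not tested for these CPM. In the groups checked, 3 values were flagged. The flags do not cover every gene named above. Fzd5, for example, was at 8.30 CPM in Eln-/- library 1, against 0 to 1.11 CPM in the rest of its group. It was at 7.09 CPM in Eln+/+ library 2, against 0.0158 to 1.01 CPM, and Myc was at 434 CPM in Eln-/- library 1, against 0.581 to 47.7 CPM. Dkk2 was at 67.9 CPM in Eln-/- library 1, while its group's remaining values were 0.603 to 13.6 CPM. Sfrp4 was at 166 CPM in Eln+/+ library 3, while its group's remaining values were 0 to 19.2 CPM. Wnt5b was at 0.0726 CPM in Eln-/- library 4, while its group's remaining values were 13.5 to 18.6 CPM.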

How the results depend on the processing

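No member was called under any of the 20 alternatives, and the smallest adjusted p of a member in any of them was 0.599, with no filter on low counts. Over all genes, edgeR called 0 (81 at an unadjusted p under 0.05), DESeq2 6 (196), limma-voom 2 (268), limma-voom with sample weights 7 (1023), and edgeR without Eln-/- library 1 and Eln+/+ library 2 called 1 (89). Leaving out 1 library at a time gave 0 to 1 calls over all genes, with 1 without Eln-/- library 1, and 0 among members. The replicate block gave 0 calls, with 71 genes at an unadjusted p under 0.05. Among members, limma-voom with sample weights gave 2 of 22 under that limit, Wnt5b (p 0.0270) and Fzd3 (p 0.0348). With no filter, edgeR gave 4 of 30 members, against 2134 of 27254 genes. These were Dkk1, Dkk4, Sfrp5 and Wnt10a, each counted in only 1 or 2 libraries. Eln was called by DESeq2 (adjusted p 1.26e-20), limma-voom (0.0155), limma-voom with sample weights (0.00781), without Eln-/- library 1 (0.0110), and without Eln-/- library 1 and Eln+/+ library 2 (0.0208).

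The 416 alternative log2 fold changes were of the 14 members given in every library and the smallest-p gene of each of 7 pathway lists. Of these values, 391 kept their sign and 25 did not, all of them for values without a call, and the cause was not tested. Other named genes were not in this count. Among them, leaving out 1 library gave -1.32 to 2.88 for Fzd5, -0.24 to 1.13 for Fzd6, -0.26 to 2.47 for Fzd9 and -0.81 to 0.32 for Wnt2b. Wnt11 and Wnt2b turned to 0.14 and 0.11 without the 3 libraries of fewest genes. Fzd8, Wnt10b and Wnt6 stayed below 0 in these fits. Sfrp1 turned to -0.28 with limma-voom, -0.29 with sample weights, -0.42 with the replicate block and -0.39 without Eln-/- library 1 and Eln+/+ library 2. Wnt2 turned to 0.0127 with limma-voom and 0.16 with the block, and Myc to -0.46 with the block. With sample weights, Sfrp4 turned to 0.15, Wnt9a to 0.11 and Lgr5 to 1.22. Without the 3 libraries of fewest genes, Fzd4 turned to 0.13, Sfrp2 to 0.11 and Wnt9a to 0.0613. With 1 library left out, values ranged from -0.42 to 0.18 for Fzd4, -0.0709 to 0.65 for Fzd7, -0.65 to 0.36 for Sfrp1, -0.87 to 0.0255 for Sfrp2, -1.55 to 0.48 for Sfrp4, -1.17 to 0.12 for Wnt2 and -0.78 to 2.72 for Myc. Wnt5b stayed between 1.11 and 1.79 while Fzd3 ranged from -0.68 to -0.24. Ranges that moved by over 1.5 times without a change of sign were -1.25 to -0.24 for Dkk3, -2.59 to -0.24 for Dkk2, -1.29 to -0.54 for Wnt5a, -1.24 to -0.23 for Wnt9a, 0.17 to 0.92 for Fzd1, 0.21 to 0.51 for Fzd2, 0.27 to 1.15 for Tmed2, 0.95 to 2.85 for Apc, 0.97 to 3.31 for Lrp5, -2.02 to -0.0158 for Lgr5, 0.39 to 1.23 for Sost and 0.86 to 2.26 for Celsr2. With limma-voom and with sample weights, Apc was at 0.87 and 0.28.

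With a common biological coefficient of variation of 1.16 and 5 libraries a group, the fold changes were known only within the intervals given.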
